A study of Mus musculus with 20 samples.

Results

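Sprr1a, Ecel1, Flrt3, Ankrd1, Csrp3 and Chl1 are 6 effector genes known to rise in sensory neurons whose axon has been cut. They were chosen by symbol, as genes known to rise and with earlier results of these data known. All 6 were found among the 78258 gene identifiers of the count table and among the 28564 genes tested. RNA of dorsal root ganglia (DRG), which house the somata of peripheral sensory neurons, was sequenced at lumbar levels 4 to 6 in 10 male mice, with separate libraries for the contralateral and the ipsilateral side of each. The conditional knockout (cKO) mice were Ahr fl/fl Thy1CRE-ERT2/EYFP, which couples 2 floxed alleles of Ahr, the aryl hydrocarbon receptor gene, to a tamoxifen-inducible Cre recombinase and a fluorescent protein driven by the neuronal Thy1 promoter. Control mice were Ahr f/f or f/+, and the labels give them no Cre. Their library names read ff, while their titles call them Wildtype. Mice of both genotypes received 100 mg/kg tamoxifen intraperitoneally, daily for 5 days from 17 weeks of age, and after 4 weeks the sciatic nerve was transected and ganglia were taken 1 day later. There were thus 4 groups of 5 libraries, with control mice H62, H63, H65, H96 and H97 and cKO mice H61, H64, H95, H99 and H100. The contralateral ganglia came from lesioned, tamoxifen-treated mice, so no group was free of surgery or of a floxed allele, and Cre excision was limited to cells that use the Thy1 promoter while RNA came from whole ganglia.

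Cutting a peripheral axon switches the neuron cell body from transmission to a growth state, in which injury signals activate transcription factors such as ATF3, JUN and SOX11, and these induce effectors that act at the membrane, on the cytoskeleton and in the nucleus. Chl1, a cell adhesion molecule of the L1 family, and Flrt3, a leucine-rich repeat transmembrane protein that binds UNC5 receptors and latrophilins, are surface proteins. Ecel1 encodes the damage-induced neuronal endopeptidase, a membrane protein of the neprilysin family. Sprr1a, a small proline-rich protein best known from the cornified envelope of skin, associates with actin and promotes neurite outgrowth, while Ankrd1 and Csrp3 encode striated muscle proteins, an ankyrin repeat cofactor and a LIM domain adaptor, that have also been described in injured neurons.

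The 250 bases before the start of 3 of the genes are shown because the genes rose together and because short motifs of injury-linked factors differ among them. The sequences are from RefSeq on build GRCm38.p6, which had a window for all 6 genes, and run 5′ to 3′ on the strand of the gene. Both strands were searched for AP-1 (TGANTCA), the CRE motif (TGACGTCA), TEAD (GGAATG) and STAT (TTCNNNGAA). Capitals mark AP-1 matches in Sprr1a (chr3:92485882-92486131, minus strand) and TEAD matches in Ankrd1 (chr19:36119845-36120094, minus strand), while Flrt3 (chr2:140671477-140671726, minus strand) held none of the 4 motifs.
Sprr1a: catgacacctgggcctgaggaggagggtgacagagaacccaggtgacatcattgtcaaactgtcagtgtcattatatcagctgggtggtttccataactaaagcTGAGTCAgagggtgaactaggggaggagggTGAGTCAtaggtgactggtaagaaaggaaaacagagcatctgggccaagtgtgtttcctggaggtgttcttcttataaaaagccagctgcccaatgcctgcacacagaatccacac
Ankrd1: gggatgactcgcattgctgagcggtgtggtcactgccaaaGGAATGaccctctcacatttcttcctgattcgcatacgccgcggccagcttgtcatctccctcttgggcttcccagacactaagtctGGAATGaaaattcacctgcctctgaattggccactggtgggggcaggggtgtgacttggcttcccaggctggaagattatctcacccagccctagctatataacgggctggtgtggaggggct
Flrt3: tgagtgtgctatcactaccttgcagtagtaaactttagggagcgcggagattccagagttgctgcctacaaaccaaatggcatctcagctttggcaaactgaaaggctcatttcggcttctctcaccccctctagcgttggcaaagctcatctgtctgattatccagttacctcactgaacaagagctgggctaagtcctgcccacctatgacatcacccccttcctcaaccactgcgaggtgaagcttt

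The Sprr1a window held 2 copies of TGAGTCA, which begin 146 and 116 bases before the start. Of 32851 promoter windows of this length, 6.75% held an AP-1 match. The Ankrd1 window held 2 copies of GGAATG, at 210 and 123 bases before the start, and 12.64% of windows held this motif. None of the 4 motifs was found in the windows of Ecel1, Flrt3, Csrp3 or Chl1. The CRE motif was present in 1.55% and the STAT motif in 7.02% of all windows. These are letter matches in 1 window per start site and were not tested for binding.

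Libraries held 76.2 to 118.5 M counts (M, mega), and of the sensory neuron markers 12 of 12 averaged at least 1 CPM in every group (summed level 7764.9 to 9182.5 CPM; CPM, counts per M of a library, scaled by TMM). Ahr, the targeted gene, was at 21.3 to 27.2 CPM in control and 19.5 to 21 CPM in cKO contralateral libraries and at 30.2 to 38.1 and 28.9 to 36.8 CPM in ipsilateral ones, so its ranges did not overlap on the contralateral side and did on the ipsilateral side. The contralateral difference was not called (log2 -0.25, edgeR adjusted p 0.103), and 1.07% of all genes lay lower without overlap there. These exon counts of all cells do not test excision. Summed satellite glia markers (5 of 5 with at least 1 CPM) moved with injury, from 955 to 1037.7 CPM in control contralateral to 1137.9 to 1264.3 CPM in control ipsilateral libraries, and from 923 to 1128.2 to 1109.9 to 1152.9 CPM in cKO mice. In the mural cell list (5 of 5) the sums went from 206 to 333 to 263 to 291 CPM in control and from 215 to 254 to 265 to 307 CPM in cKO mice. By edgeR, 3 of 5 satellite glia markers were called higher in control and 2 of 5 in cKO mice, and 0 lower. Cdh19 (log2 -0.03 and 0.04) and Fabp7 (0.03 and -0.20) were not called. Of the mural cell markers 0 were called in control mice, and only Rgs5 was called higher in cKO mice. Rgs5 alone averaged 204 CPM in control contralateral libraries. Over all genes edgeR called 13.8% higher in control and 16.2% in cKO mice. Of the 12 sensory neuron markers, 4 were called lower and 0 higher with injury in each genotype by edgeR and by DESeq2, where edgeR called 16% of all genes lower in control and 15.1% in cKO mice. At an unadjusted p under 0.05, 1 was higher and 4 lower in control mice, and 0 higher and 5 lower in cKO mice. In control mice these were Prdm12 (log2 -0.51), Isl1 (-0.37), Rbfox3 (-0.27) and Scn10a (-0.19). No marker of these 3 lists was at 0, and their part in the injury results was not tested. In bulk tissue, fewer cells of a type and less RNA per cell cannot be told apart.

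The injury comparison asks which of the 6 genes differed between ipsilateral and contralateral ganglia 1 day after transection. In control mice 5 of 6 rose and 0 fell (edgeR quasi-likelihood test, Benjamini-Hochberg adjusted p under 0.05 over all 28564 genes), against 13.8% of all genes higher and 16% lower. The cKO mice again had 5 of 6 higher and 0 lower, against 16.2% of all genes higher and 15.1% lower. DESeq2 gave the same 5 higher and 0 lower in each genotype, with 12.2% and 11.8% of all genes higher and lower in control and 14.5% and 12.7% in cKO mice. At an unadjusted p under 0.05 there were also 5 higher and 0 lower in each, where all genes gave 17.7% and 20.8% in control and 19.7% and 20.9% in cKO mice. From the smallest to the largest log2 fold change in control mice, these were Chl1, Ecel1, Flrt3, Ankrd1 and Sprr1a, and Csrp3 was the gene not called in either genotype. The 2 genotypes are separate mice, but both comparisons come from 1 fit with a shared estimate of the spread. The 6 genes were chosen as known to rise, so a share above that of all genes is no independent evidence.

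**Figure D1:**
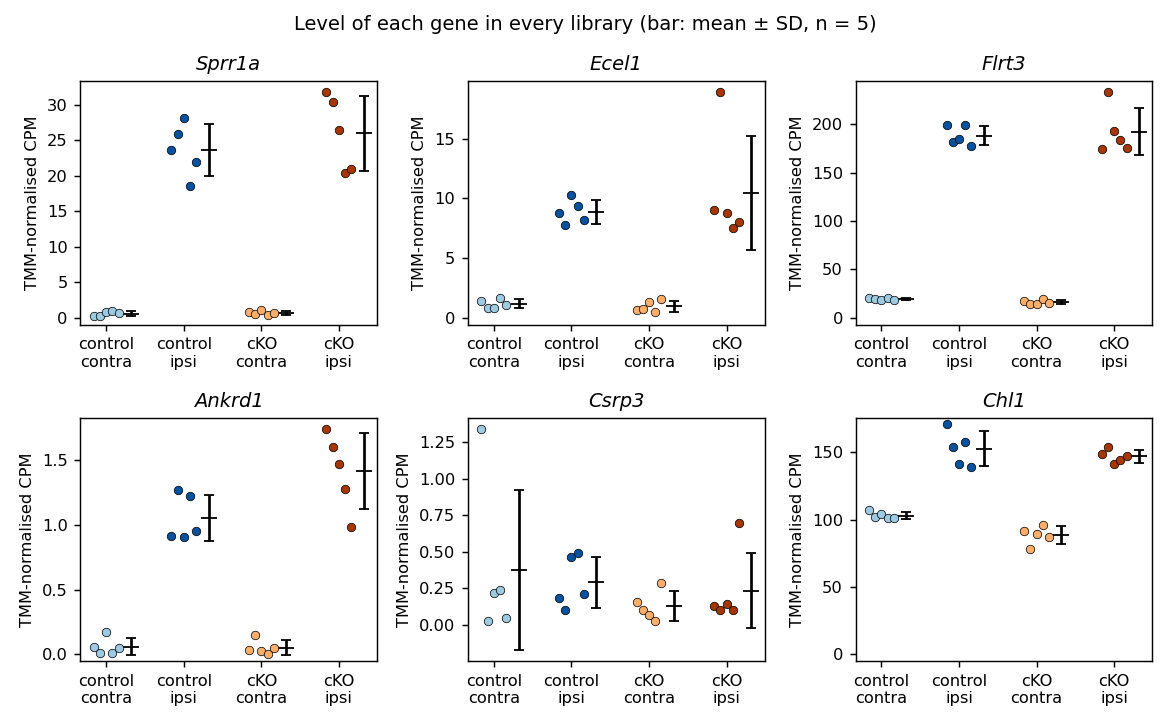
TMM-normalised CPM (vertical axes, linear) of each gene in the contralateral (contra) and ipsilateral (ipsi) libraries of control and cKO mice. Points are single libraries, and the bar beside them is the mean ± SD of 5; for Sprr1a, Ecel1, Flrt3, Ankrd1 and Chl1 every ipsilateral point is above every contralateral point of the same genotype, while Csrp3 points overlap.

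Chl1 was the most abundant of the genes on the contralateral side and had the smallest called increase. Contralateral control libraries (H62, H63, H65, H96 and H97, an order kept below) had 107, 102, 104, 101 and 101 CPM, and ipsilateral ones had 171, 154, 141, 158 and 139 CPM. All ipsilateral values were above all contralateral values, with H62 highest on both sides. The means were 103 ± 2.74 and 152 ± 13.4 CPM (SD, n = 5), a 1.48-fold rise with a log2 fold change of 0.56 (SE 0.0529, edgeR adjusted p 5.146e-08). In cKO mice (H61, H64, H95, H99 and H100) contralateral libraries had 91.5, 78, 89.3, 95.9 and 87.2 CPM and ipsilateral ones had 149, 154, 141, 144 and 147 CPM. The groups again did not overlap, and H64 was lowest on the contralateral and highest on the ipsilateral side. The rise was 1.66-fold (log2 0.73, SE 0.0531, adjusted p 8.042e-10), from 88.4 ± 6.65 to 147 ± 4.96 CPM. Although small as a ratio, the gain in Chl1 was 49.4 CPM in control mice, rank 183 of 28564 genes by absolute gain, against rank 1971 by log2 fold change.

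Flrt3 had the largest absolute gain and, in control mice, the most even response. Its contralateral levels in control mice were 20.8, 19.1, 17.9, 20.1 and 17.8 CPM, and its ipsilateral levels were 199, 182, 185, 199 and 178 CPM. No control library fell between 20.8 and 178 CPM. The rise was 9.85-fold (log2 3.30, SE 0.0892, adjusted p 2.285e-15), from 19.1 ± 1.33 to 189 ± 9.85 CPM. Within each control mouse the difference was 3.25 to 3.37 on the log2 scale, an SD of 0.0514. In cKO mice the contralateral levels were 16.7, 14.4, 14.5, 19.2 and 14.8 CPM and the ipsilateral levels 175, 234, 193, 184 and 176 CPM. H64 stood above the other ipsilateral libraries, and the groups did not overlap. The rise was 12.1-fold (log2 3.59, SE 0.0907, adjusted p 6.395e-16), from 15.9 ± 2.05 to 192 ± 24.1 CPM. The absolute gains of 169 CPM in control and 176 CPM in cKO mice ranked 16 of 28564 genes in each genotype. Flrt3 lies within Macrod2 on the opposite strand with an exon overlap of 0 bases, and Macrod2 itself was not called (log2 -0.09 in control mice, edgeR adjusted p 0.0838).

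Ecel1, the endopeptidase, went from about 1 CPM to a level that differed little among 9 of the 10 mice. Contralateral control libraries had 1.43, 0.82, 0.805, 1.65 and 1.03 CPM, and ipsilateral ones had 8.76, 7.77, 10.3, 9.37 and 8.18 CPM. The groups were far apart, and their means were 1.15 ± 0.377 and 8.88 ± 1 CPM. The rise was 7.67-fold (log2 2.94, SE 0.327, adjusted p 1.759e-06). The cKO contralateral libraries had 0.648, 0.735, 1.3, 0.434 and 1.54 CPM and the ipsilateral ones 9.03, 18.9, 8.77, 7.54 and 8.01 CPM. The 18.9 CPM of H64 was 2.16 times the group median, and this library was also the deepest of the 20 (118.5 M counts), while the contralateral library of the same mouse was the shallowest. The rise was 11.2-fold (log2 3.49, SE 0.338, adjusted p 2.838e-07).

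Sprr1a had the largest fold change of the 6 genes. Contralateral control libraries had 0.233, 0.269, 0.815, 0.979 and 0.586 CPM, from 22 to 118 counts. Ipsilateral control libraries had 23.7, 25.9, 28.1, 18.6 and 22 CPM. The lowest ipsilateral value was many times the highest contralateral one, and H96 had the highest contralateral and the lowest ipsilateral level. The rise was 39.9-fold (log2 5.32, SE 0.336, adjusted p 1.418e-09), from 0.577 ± 0.329 to 23.7 ± 3.66 CPM. In cKO mice contralateral libraries had 0.727, 0.494, 1.01, 0.302 and 0.633 CPM and ipsilateral ones 31.8, 30.4, 26.5, 20.4 and 20.9 CPM. The groups did not overlap, and the 40.7-fold rise (log2 5.35, SE 0.338, adjusted p 1.112e-09) took the mean to 26 ± 5.25 CPM. By log2 fold change Sprr1a was at rank 37 of 28564 genes in control mice and at rank 36 in cKO mice.

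Sprr1a is otherwise a gene of squamous epithelium, and keratinocyte markers stayed low in every library. Their sum was 5.13 to 7.06 CPM, 3 of 8 averaged at least 1 CPM in each group, and Krt5 was at 0 in both contralateral groups. Of the 5 keratinocyte markers tested, Dsg3 and Krt14 were called higher with injury in both genotypes and 0 were called lower. Over all genes 13.8% were called higher in control and 16.2% in cKO mice. The log2 fold changes were 5.87 in control and 3.06 in cKO mice for Dsg3, and 0.93 and 1.13 for Krt14. Dsg3 went from a mean of 0.00332 to 0.32 CPM in control mice, and Krt14 from 0.184 to 0.351 CPM. Of the other small proline-rich genes looked for, Sprr1b, Sprr2d, Sprr2f, Sprr2h and Sprr3 had 0 counts in all 20 libraries. In the smallest library this allows up to 3 counts, or 0.0394 per M counts before TMM scaling. Sprr4 had 2 counts in all. Sprr2a1 had 11 counts over the control contralateral and 48 over the control ipsilateral libraries and was called higher (log2 2.20). Sprr genes are near-identical in part, and how the authors treated reads shared among them is not given in the sources used here.

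Ankrd1 was close to undetected on the contralateral side. In contralateral control libraries 5, 1, 17, 1 and 4 counts were found, and in ipsilateral ones 75, 99, 76, 105 and 99 counts. Those ipsilateral counts were 0.916, 1.27, 0.907, 1.22 and 0.954 CPM, each above the highest contralateral value of 0.169 CPM in H65. The rise was 17.6-fold (log2 4.13, SE 0.487, adjusted p 1.940e-06). In cKO mice contralateral libraries had 3, 12, 2, 0 and 4 counts and ipsilateral ones 162, 189, 164, 137 and 85 counts, or 1.74, 1.6, 1.47, 1.28 and 0.983 CPM. The groups did not overlap. The count of 0 in H99 allows up to 3 counts, or 0.0353 per M counts before TMM scaling. The rise was 27.5-fold (log2 4.78, SE 0.503, adjusted p 4.083e-07), to a mean of 1.42 ± 0.296 CPM. With so few contralateral counts, the size of this fold depends on single libraries: without H65 the control log2 fold change was 5.16.

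Csrp3 was not called and its libraries did not separate by side. Contralateral control libraries had 1.34, 0.0245, 0.219, 0.241 and 0.0499 CPM, and ipsilateral ones had 0.183, 0.103, 0.466, 0.489 and 0.212 CPM. The highest of all 20 values was in the contralateral library of H62, with 127 counts, against 2 to 60 counts elsewhere. The log2 fold change was -0.38 with a 95% interval of -2.08 to 1.32 (adjusted p 0.784). In cKO mice contralateral libraries had 0.159, 0.101, 0.0666, 0.0241 and 0.286 CPM and ipsilateral ones 0.129, 0.102, 0.144, 0.103 and 0.694 CPM. The groups overlapped, and H100 was highest on both sides. The log2 fold change was 0.84 (-1.07 to 2.75, adjusted p 0.536), and these intervals include both a fall and a rise of over 2-fold. Without H62 the control value was 1.17 (adjusted p 0.297), and with the replicate block it was 0.37 (adjusted p 0.72), so its sign was not settled.

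The highest Csrp3 levels were found in libraries with high skeletal muscle markers. Summed levels of 9 skeletal muscle markers (8 or 9 of 9 averaged 1 CPM or more in each group, none at 0) were 12 to 444 CPM in control contralateral, 9.6 to 751 in control ipsilateral, 7.83 to 1999.3 in cKO contralateral and 5.17 to 141 in cKO ipsilateral libraries. The contralateral library of H62 had the highest sum of its group, 444 CPM, and both libraries of H100 were the highest of theirs, at 1999.3 and 141 CPM. In control ipsilateral ganglia the 2 highest Csrp3 levels, in H96 and H65, fell in the 2 libraries with the highest sums, 306 and 751 CPM. Libraries with low sums were not at 0 for Csrp3: H95 ipsilateral had 16 counts with a marker sum of 5.36 CPM. The part of muscle RNA in the Csrp3 result was not tested.

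**Figure D2:**
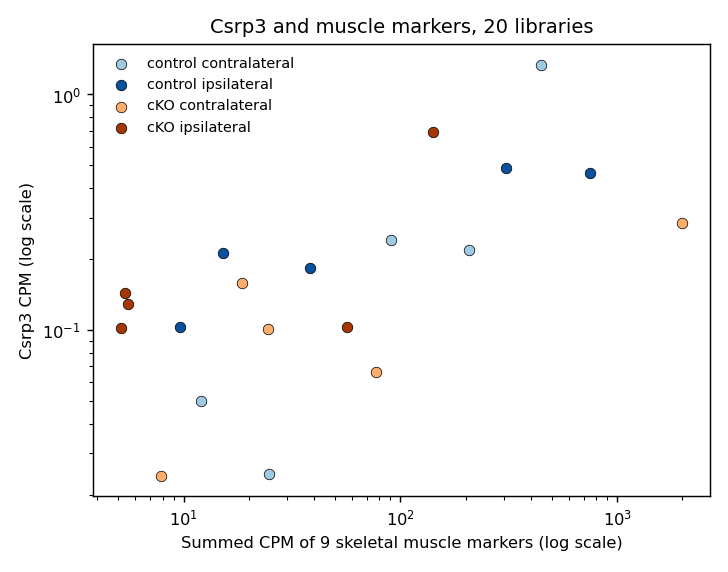
Csrp3 CPM (vertical axis, log scale) against the summed CPM of 9 skeletal muscle markers (horizontal axis, log scale) in the 20 libraries, coloured by group. The library with 1.34 CPM of Csrp3 had a marker sum of 444 CPM, and the library with 0.0241 CPM had a sum of 7.83 CPM. The library with the highest sum, 1999.3 CPM (contralateral, cKO mouse H100), had 0.286 CPM of Csrp3.

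The 5 called genes were also separated library by library. In control mice the ipsilateral libraries were all above the contralateral ones for 5 of 6 genes, and this held for 11.3% of all genes. In cKO mice it held for 5 of 6 genes and for 11.9% of all genes. Taken within each animal, Sprr1a, Ecel1, Flrt3, Ankrd1 and Chl1 were higher on the ipsilateral side in 10 of 10 mice. Csrp3 was at -2.74 on the log2 scale in H62 and at 0.96 to 1.71 in the other control mice, and at -0.26 to 1.44 in cKO mice.

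**Figure D3:**
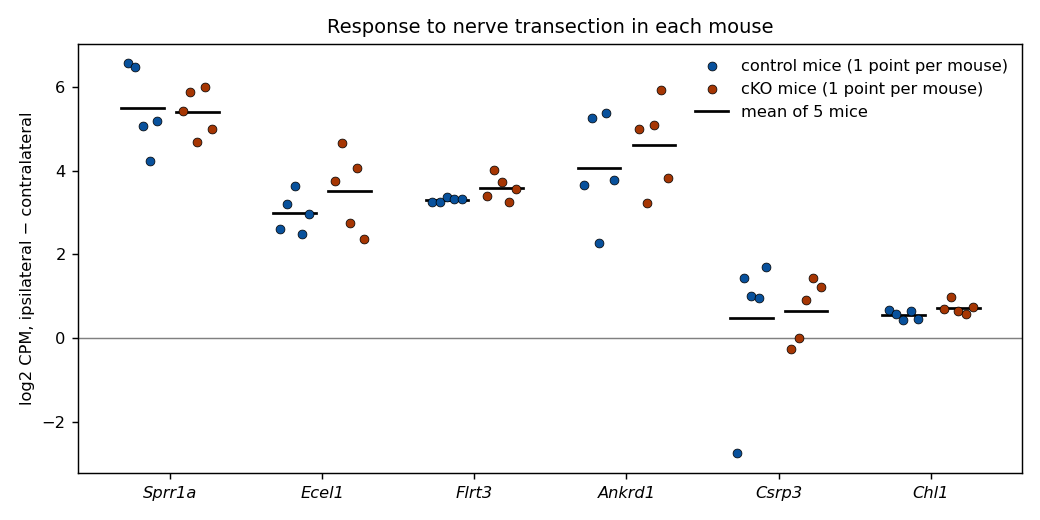
Log2 CPM on the ipsilateral side minus the contralateral side (vertical axis) for each of 10 mice, by gene and genotype, with black lines at the mean of 5 mice. Flrt3 in control mice spans 3.25 to 3.37, Sprr1a spans 4.22 to 6.55, and Csrp3 has 1 control mouse at -2.74.

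The spread of the response among mice differed between genes. Flrt3 and Ecel1, of similar fold change in control mice, had SDs of 0.0514 and 0.469 on the log2 scale. For Sprr1a the responses of control mice were 6.55, 6.47, 5.07, 4.22 and 5.18 on the log2 scale, and the 2 mice with the largest responses, H62 and H63, were those with the lowest contralateral levels. The contralateral level is subtracted in the response, so a low level raises the response by construction. Ankrd1 was the most variable of the called genes, with an SD of 1.28 in control and 1.07 in cKO mice at contralateral counts of 0 to 17. Chl1 had an SD of 0.111 in control and 0.15 in cKO mice. H64 had the largest response of all 10 mice for Flrt3 (4.02), Ecel1 (4.65) and Chl1 (0.98), but the smallest among cKO mice for Ankrd1 (3.22).

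Compared per kilobase of merged exon, the order of the levels changed with injury. In control contralateral libraries Chl1 led with 8.38 ± 0.223 CPM per kb, followed by Flrt3 (3.93 ± 0.274), Sprr1a (0.715 ± 0.408), Ecel1 (0.328 ± 0.108), Csrp3 (0.141 ± 0.206) and Ankrd1 (0.0203 ± 0.0226). The ranges of Sprr1a and Ecel1, of Ecel1 and Csrp3, and of Csrp3 and Ankrd1 overlapped. In control ipsilateral libraries the order was Flrt3 (38.8 ± 2.02), Sprr1a (29.3 ± 4.54), Chl1 (12.4 ± 1.09), Ecel1 (2.54 ± 0.286), Ankrd1 (0.365 ± 0.0618) and Csrp3 (0.109 ± 0.0657), with no overlap between neighbours. The order by mean was the same in cKO mice on each side. There, Flrt3 at 39.5 ± 4.95 and Sprr1a at 32.3 ± 6.51 CPM per kb overlapped on the ipsilateral side, and Sprr1a with Ecel1 and Csrp3 with Ankrd1 on the contralateral side.

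Other genes were ranked by how closely their centred log2 CPM followed each of the 6 over the 20 libraries, as a root mean square difference. The closest to Flrt3 was Sema6a (0.0991), a transmembrane semaphorin at 17.6 CPM in control contralateral and 163 CPM in control ipsilateral libraries, followed by the transcription factor Sox11 (0.235) and Gadd45a (0.249), a growth arrest and DNA damage gene. For Sprr1a they were Tmem88b (0.58), Atf3 (0.586), the injury transcription factor, and Cckbr (0.659), a cholecystokinin receptor. Ecel1 was nearest to Saa1 (0.416), Rin1 (0.423) and Gadd45a (0.452), and Ankrd1 to Areg (0.728), Saa1 (0.791) and Colec10 (0.806). The genes closest to Chl1 were Ssh1 (0.0651), a cofilin phosphatase, Kpna2 (0.0756), an importin, and Trpv2 (0.0757), a cation channel. Csrp3 was followed most closely by the muscle genes Actn2 (0.691), Hspb7 (0.828) and Tpm2 (0.887), at large differences. Their group means did not all move with Csrp3, whose mean went from 0.127 to 0.234 CPM with injury in cKO mice. Actn2 went from 1.47 to 0.787 CPM there, Tpm2 from 33 to 12.5 CPM and Hspb7 from 1.75 to 1.81 CPM. The search covered 17309 or 17310 genes.

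Among other effectors of axotomy, 22 of 25 tested genes were called higher and 0 lower in control mice, and 23 of 25 higher and 0 lower in cKO mice, beside shares over all genes of 13.8% and 16% in control and 16.2% and 15.1% in cKO mice. At an unadjusted p under 0.05 the counts were 23 and 24 higher and 0 lower, and DESeq2 called 22 and 23 higher and 0 lower (shares over all genes are given with the 6 genes above). Their median log2 fold change was 1.61 in control and 1.55 in cKO mice, against 3.12 and 3.54 for the 6 genes and -0.00 and -0.03 for all genes tested. The highest in control mice were Gpr151 (3.99), an orphan receptor, and the neuropeptide Npy (3.55). The lowest, also called, were the growth cone protein Basp1 (0.14) and Tubb2b (0.27), a tubulin. Lif and Vip were not called in either genotype, and Reg3b was not tested. This list and that of the transcription factors below hold genes linked to axotomy, chosen with earlier results of these data known. A high share called in them is therefore no independent evidence.

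The 10 transcription factors linked to axotomy were all called higher in both genotypes, where control mice had 13.8% and cKO mice 16.2% of all genes called higher. Their median log2 fold changes were 1.11 in control and 1.09 in cKO mice. Atf3 reached 5.23 in control and 5.50 in cKO mice, close to the 5.32 and 5.35 of Sprr1a, and Sox11 reached 2.90 and 3.13. Stat3 (0.28 and 0.46) and Myc (0.77 and 0.90) were among the smallest.

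Relatives of the 6 genes were called about as often as genes in general. Of 16 tested, 2 were called higher and 2 lower in control mice, and 3 higher and 2 lower in cKO mice, with medians of 0.07 and -0.03, while the shares over all genes were the 13.8% and 16% (control) and 16.2% and 15.1% (cKO) given above. Ece1, an endothelin-converting enzyme, was called slightly higher (0.11), whereas Ece2 (-0.15) was called lower in control mice. Flrt1, a relative of Flrt3, was called lower in both genotypes (-0.52 and -0.52). L1cam, the founder of the family of Chl1, was called higher in cKO mice (0.23), and Csrp2, a relative of Csrp3, was called lower there (-0.23). The count of relatives called higher in control mice fell to 1 without H62, H63 or H96 and on both FPKM scales and was 3 without H64 or H100, and in cKO mice the count called lower fell to 1 without H61, H95 or H100. In a fit of only the libraries compared, 1 was called higher and 1 lower in cKO mice.

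Of 11 known binding partners of the proteins tested, 2 were called higher and 3 lower in each genotype, beside shares over all genes of 13.8% and 16% in control and 16.2% and 15.1% in cKO mice. Itgb1, an integrin partner of Chl1, was called higher (0.44 in control, 0.46 in cKO mice), and so was Unc5d (0.29 and 0.60), a receptor for Flrt3. Unc5b (-0.47 and -0.61) and the latrophilins Adgrl1 (-0.31 and -0.23) and Adgrl3 (-0.29 and -0.16) were called lower, while Adgrl2 (0.03) and Nrp1 (-0.12) were not called. Without H62, H65 or H96, and with log2(FPKM + 1), 1 rather than 2 was called higher in control mice.

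Ankrd1 is a target of the transcriptional coactivators YAP and TAZ, and other targets were called about as often as genes in general. Of 16 tested, 3 were called higher and 1 lower in control mice, and 2 higher and 2 lower in cKO mice, with medians of 0.22 and -0.13, against 13.8% and 16% of all genes in control and 16.2% and 15.1% in cKO mice. Igfbp3 (2.87 and 2.67) had a large rise, Fjx1 (0.32) and Nt5e (0.27) were called higher in control mice, and Arhgef17 (-0.18) was called lower. The defining targets Ccn1 (0.46 in control, -0.61 in cKO mice) and Ccn2 (0.16 and -1.13) were not called. The single target called lower in control mice became 2 in a fit of only the libraries compared, and the 2 called lower in cKO mice became 1 without H95.

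The genotype comparison on the contralateral side asks whether the 6 genes differed in cKO mice away from the lesion, and it uses the same contralateral libraries as the injury comparisons. None of the 6 was called higher or lower by edgeR, where 0.0245% of all genes were called higher and 0.049% lower. At an unadjusted p under 0.05 there were 0 higher and 2 lower, Flrt3 and Chl1, against 8% of all genes higher and 9.53% lower at that threshold. DESeq2 called 1 lower, Chl1. The contralateral Chl1 levels given above were lower in all 5 cKO than in all 5 control libraries, a pattern shared by 1.07% of all genes. The log2 difference was -0.22 (SE 0.0529, 95% interval -0.33 to -0.11, edgeR adjusted p 0.0923). DESeq2 gave -0.21 with an adjusted p of 0.0111, in a fit that called 1.53% of all genes lower. edgeR without H99 gave -0.25 with 0.00931, where 6.52% of all genes (1878 of 28818) were called lower against 14 with H99, so the call came with a rise in calls across all genes. The adjusted p ranged from 0.00931 to 0.384 over 18 alternatives.

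Contralateral Flrt3 was at 14.4 to 19.2 CPM in cKO and 17.8 to 20.8 CPM in control libraries, which overlapped through H99. The log2 difference was -0.26 (SE 0.0851, interval -0.44 to -0.09, edgeR adjusted p 0.138), and without H99 it was -0.34 with an adjusted p of 0.0154. Fibroblast markers (7 of 7 with at least 1 CPM, none at 0) had overlapping sums on this side, of 803 to 1359.0 CPM (median 840) in control and 937 to 2244.7 CPM (median 1688.6) in cKO libraries, and 0 of 7 were called higher and 0 lower by edgeR (6 and 0 at an unadjusted p under 0.05, against 8% and 9.53% of all genes, and 3 and 0 with DESeq2, against 2.93% and 1.53%). The 2 cKO libraries with the lowest sums, H99 at 937 and H61 at 1009.8 CPM, had the highest Chl1 and Flrt3 of their group, and H64, with the highest sum, had the lowest of both. In control mice the library with the highest sum, H62 at 1359.0 CPM, had the highest Chl1 and Flrt3. The part of fibroblast RNA in these differences was not tested.

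The other members differed by less than their spread between mice on the contralateral side. The log2 difference was 0.11 for Sprr1a (95% interval -0.65 to 0.87), -0.31 for Ecel1 (-1.03 to 0.40), -0.22 for Ankrd1 (-1.66 to 1.22) and -1.57 for Csrp3 (-3.42 to 0.28). The Csrp3 value rested on H62, without which it was -0.14. These intervals leave room for differences of 1.5-fold or more in each direction for Sprr1a and Ankrd1. Of the 10 axotomy transcription factors, Jun was called lower in cKO contralateral ganglia (103 against 89.2 CPM, log2 -0.21, edgeR adjusted p 0.0278). At an unadjusted p under 0.05, 0 of the 10 were higher and 5 lower, against 8% and 9.53% of all genes, and DESeq2 called 0 higher and 3 lower, against 2.93% and 1.53%. By edgeR, 0 of the 25 other effectors were called higher or lower (2 higher and 9 lower at an unadjusted p under 0.05, 0 and 1 with DESeq2, beside the same shares).

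On the ipsilateral side none of the 6 genes differed between genotypes past the threshold, where 0.007% of all genes were called. None of the 6 had an unadjusted p under 0.05 by edgeR, where 674 of 28564 genes did. DESeq2 also called 0 of the 6, and over all genes it called 1 higher and 1 lower. The log2 differences were -0.05 for Chl1 (95% interval -0.16 to 0.06), 0.03 for Flrt3 (-0.14 to 0.20), 0.24 for Ecel1 (-0.38 to 0.85), 0.14 for Sprr1a (-0.42 to 0.69), 0.43 for Ankrd1 (-0.32 to 1.17) and -0.35 for Csrp3 (-2.11 to 1.40). The intervals for Chl1 and Flrt3 were narrow, at most 0.20 from 0, and those of the other genes were wide. Ankrd1 had its 4 highest ipsilateral values in cKO mice, but H100 at 0.983 CPM lay within the control range.

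**Figure D4:**
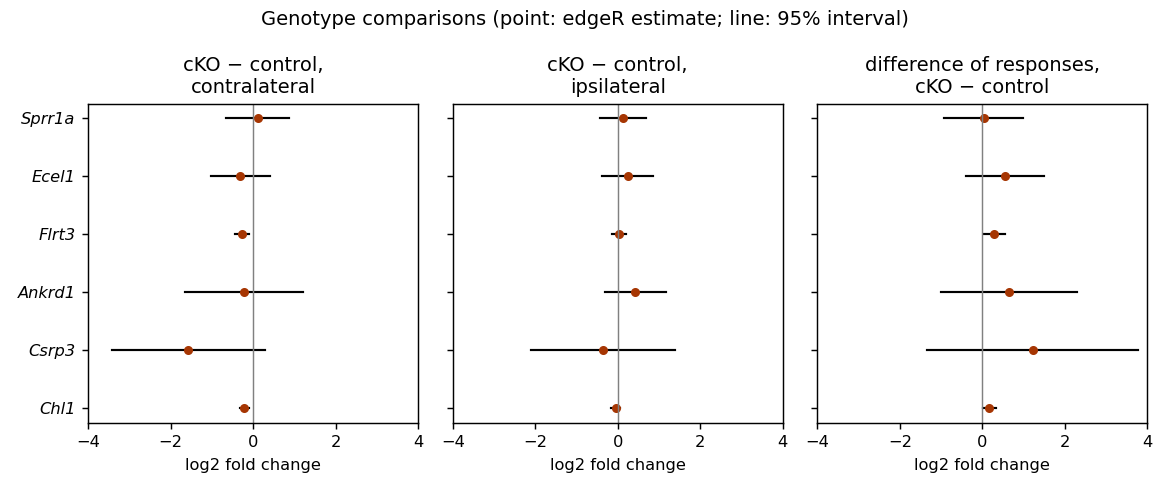
Log2 fold changes (horizontal axes) of cKO against control on the contralateral side, on the ipsilateral side, and of the difference between the injury responses; points are edgeR estimates and lines 95% intervals (n = 5 mice per genotype). Chl1 and Flrt3 have the narrowest intervals, and on the contralateral side theirs lie below 0, at -0.33 to -0.11 and -0.44 to -0.09.

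The difference of the injury responses between genotypes was tested as an interaction, which uses all 20 libraries again. None of the 6 genes was called, nor was any other gene (0% of 28564 in edgeR). At an unadjusted p under 0.05 there were 2 members, Flrt3 and Chl1, among 2799 genes, and DESeq2 called 0 of the 6. Over all genes DESeq2 called 11 larger and 1 smaller, and edgeR without H99 called 35 and 8. The response of Flrt3 was larger in cKO mice by 0.29 on the log2 scale (95% interval 0.05 to 0.54, adjusted p 0.489) and that of Chl1 by 0.17 (0.01 to 0.32, adjusted p 0.498). In these 2 genes the genotypes differed by -0.26 and -0.22 on the contralateral side, which enters the interaction, and by 0.03 and -0.05 on the ipsilateral side. For Sprr1a the difference was 0.03 (-0.92 to 0.98), for Ecel1 0.55 (-0.40 to 1.49), for Ankrd1 0.65 (-1.0 to 2.29) and for Csrp3 1.22 (-1.34 to 3.77).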

How the data were processed

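Stranded mRNA libraries were read as paired 150 bp reads, per the labels' protocols. In the deposited table of counts, values are whole numbers of exonic reads per gene, not normalized. The deposited FPKM, made by the authors, equalled counts per M without TMM scaling, divided by 1 length per gene, in 21541 of 21541 genes checked (coefficient of variation under 0.001). For the members checked, all but Csrp3, that length was the whole gene span (239626 bases for Chl1), so FPKM were used only within genes. HISAT2, Picard and the builds mm10 and mm39 are named, without roles, in the submitters' processing notes; the counting program, annotation release and strand setting used are not given in the sources used here. Symbols came from GENCODE release M21 by identifier (51487 of 78258 matched, holding 98.1% of counts), and exon lengths are of that release, which can differ from the one counted. The treatment label names a spinal cord injury while the protocol describes sciatic nerve transection, which was followed, and 1 title with a shortened mouse number was read by its library name.

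Counts were fitted in R 4.3.3 with edgeR 4.0.16 (filterByExpr, minimum count 10 and total 15; TMM; robust quasi-likelihood F-test), with all 20 libraries and 4 group means in a single model. Adjusted p-values are Benjamini-Hochberg over 28564 genes per comparison, called under 0.05, and the code was tested on simulated data. Alternatives, 18 in all, were DESeq2 1.42.0, RLE size factors, no filter on low counts, a replicate block, a fit of only the libraries compared, a covariate for the range of mouse numbers, limma 3.58.1 on log2(FPKM + 1) or log2(FPKM + 0.1), and leaving out each of 10 mice. The replicate block used mouse terms in edgeR for the injury comparisons and the interaction. For the genotype comparison on each side it was limma voom with a correlation of 0.11 between libraries of a mouse. Likeness used log2 CPM with a prior count of 2, each gene centred on its mean, among tested genes with a symbol and a mean of at least 1 CPM. Figures were drawn with matplotlib 3.10.9.

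The rule for named genes took the 6 members, the 3 genes most like each, Ahr, relatives and binding partners (not all are named), and up to 4 examples per list with the highest and lowest log2 fold change in control mice; Lif, Vip, Sox11, Myc, Ccn1, Ccn2 and others beyond that, including neuron markers, were chosen after their values were seen. Listed genes without a value of their own in the text enter its counts only. Members and lists were chosen with earlier results of these data known. The labels pair the 2 libraries of each animal. Deviations from the group mean correlated between them with a median of 0.186 (-0.0546 to 0.361), over 0.1 in 7 of 10 mice. Replicates are separate mice and differed by more than counting error (chi-square per degree of freedom 4.97 to 52.7 over 40 pairs). Reads carried no stated molecular identifiers, and limits from counts cover counting error only.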

Additional observations from a re-analysis of the deposited data

Results flagged for a closer look

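Single libraries stood apart from the other 4 of their group in 5 of 36 sets of 5 values (Dixon's ratio of gap to range above 0.71), where chance alone flags about 1 in 20 sets of normal values. The sets are not independent, since levels and responses share libraries, and CPM of genes with few counts are skewed, so the number is not read as an excess. Ecel1 in the ipsilateral library of cKO mouse H64, at 18.9 CPM, had a ratio of 0.869. Ankrd1 in the contralateral library of control mouse H65, at 0.169 CPM, had a ratio of 0.723. Csrp3 had ratios of 0.836 in the contralateral library of control mouse H62 (1.34 CPM) and 0.929 in the ipsilateral library of cKO mouse H100 (0.694 CPM), and the Csrp3 response of H62 (-2.74 on the log2 scale) had a ratio of 0.832. The skeletal muscle sums of the H62 and H100 libraries were 444 and 141 CPM, the highest of their groups. Their sums of fibroblast (1359.0 and 1560.2 CPM), mural cell (333 and 307) and endothelial markers (98.7 and 108) were also the highest of their groups. H62 was also highest for neutrophil markers (107 CPM) and H100 for macrophage markers (149 CPM). The part of these cell types was not tested.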

How the results depend on the processing

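The 5 members called higher with injury were called under all 18 alternatives in each genotype, the replicate block included (5 and 5 called), and 0 were called under any alternative on the ipsilateral side or for the interaction. With log2(FPKM + 1) the injury differences shrank for low or long genes, to 0.16 for Ankrd1, 0.81 for Ecel1, 0.19 for Chl1 and 3.33 for Sprr1a in control mice. On the contralateral side the number of members called went from 0 to 1 with DESeq2 and from 0 to 2 when leaving out mice, with 2 without H99. Calls over all genes rose too, from 7 higher and 14 lower to 664 and 346 with DESeq2 and to 1448 and 1878 without H99. The replicate block changed no call of a member and turned the sign of 1 value, Csrp3 in control mice (0.37). Values that turned sign, none past the threshold, were as follows when leaving out each mouse: Csrp3 injury in control mice -0.77 to 1.17; contralateral Sprr1a -0.11 to 0.41 and Ankrd1 -1.12 to 0.76; ipsilateral Ecel1 -0.09 to 0.34 and Flrt3 -0.05 to 0.06; interaction Sprr1a -0.35 to 0.24, Ankrd1 -0.37 to 1.49 and Csrp3 -0.33 to 1.61. The Sprr1a interaction was -0.03 with log2(FPKM + 0.1). The causes were not tested. Alternatives for the gene lists were added after seeing the data. Of the 18 listings of a gene as most like a member, 15 recurred with a prior count of 0.5 and 12 with a mean of at least 5 CPM. Gadd45a and Saa1 were each listed for more than 1 member. Counts of 0 to 17 limit contralateral Ankrd1, and counts of 2 to 127 limit Csrp3. The spread between mice limits the other values, with at least 1132 counts per library for Flrt3 and 6152 for Chl1.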

Other observations

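Markers of the other cell types of the ganglia were present in every group, as sums of CPM over the list. Schwann cell markers (7 of 7 with a mean of 1 CPM or more) ranged from 3081.6 to 4474.7, endothelial markers (5 of 5) from 65.8 to 120 and macrophage markers (6 of 6) from 60.5 to 149. Neutrophil markers (4 of 5) ranged from 19.7 CPM in a cKO contralateral library to 151 CPM in another of the same group. The ranges of these 4 lists overlapped among all 4 groups.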
